A study of Homo sapiens with 4 samples.

Results

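The genes described here encode 10 chaperones and folding enzymes of the endoplasmic reticulum: HSPA5, HSP90B1, CALR, CANX, PDIA3, PDIA4, PDIA6, GANAB, HYOU1 and DNAJB9. They were picked by symbol from the 18398 RefSeq transcripts listed in each library, and all 10 were found on 1 row each. RNA sequencing was run on Huh7 and Huh1, established human hepatocellular carcinoma cell lines, transfected with an siRNA against ODC1 or with a negative control siRNA. There were 4 groups of 1 library each, namely Huh7 with ODC1 siRNA, Huh7 with control siRNA, Huh1 with ODC1 siRNA and Huh1 with control siRNA, so no line had a replicate of either siRNA. ODC1 codes for ornithine decarboxylase, which makes putrescine, the first polyamine. The labels give the target of the siRNA only, and the time after transfection is not given in the sources used here.

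Proteins that enter the secretory pathway fold in the endoplasmic reticulum, which is a large task for hepatocytes and the tumour lines derived from them because they export most plasma proteins. HSPA5, also called BiP, is the Hsp70 chaperone of this compartment and HSP90B1, also called GRP94, is its Hsp90 chaperone. Glycoproteins follow a second route, in which glucosidase I and glucosidase II trim the glucoses of the attached glycan, and the lectin chaperones calnexin and calreticulin hold the trimmed glycoprotein while PDIA3 forms its disulfide bonds. Misfolded protein in the compartment sets off the unfolded protein response, in which the transcription factors ATF6 and XBP1 raise many of these chaperone genes together.

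Promoter matches to the binding elements of ATF6 and XBP1 are shown first, as a description. Because these factors raise many of these chaperone genes, matches among the members are not independent of the choice of members. The window from 250 bases before to 50 bases after the start of a transcript was searched on both strands for the ER stress response element ERSE (CCAAT, any 9 bases, CCACG), for ERSE-II (ATTGG, any 1 base, CCACG) and for the XBP1 element UPRE (TGACGTGG). Windows came from RefSeq on GRCh38.p14 for 9 members and for each the window nearest the GENCODE start of its transcript was taken. PDIA3 had no window. The sites are printed with 10 bases on each side and the fixed letters of the element in capitals, in the sense of the gene.
HSPA5, chr9:125241381-125241419, minus strand: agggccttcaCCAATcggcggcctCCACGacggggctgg
HSP90B1 upstream site, chr12:103930206-103930244, plus strand: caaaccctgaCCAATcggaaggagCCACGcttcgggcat
HSP90B1 downstream site, chr12:103930311-103930349, plus strand: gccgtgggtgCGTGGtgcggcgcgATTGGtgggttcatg
CALR, chr19:12938374-12938412, plus strand: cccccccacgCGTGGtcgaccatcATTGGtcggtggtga
CANX, chr5:179698768-179698806, plus strand: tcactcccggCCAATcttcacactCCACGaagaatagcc
PDIA6, chr2:10812843-10812881, minus strand: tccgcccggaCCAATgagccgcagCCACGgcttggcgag
HYOU1 upstream ERSE-II, chr11:119057370-119057400, minus strand: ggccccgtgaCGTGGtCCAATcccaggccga
HYOU1 downstream ERSE-II, chr11:119057264-119057294, minus strand: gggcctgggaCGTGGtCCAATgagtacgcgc

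ERSE stood in the windows of 5 members, against 0.0769% of all 35116 windows. HSP90B1 held it on each strand, and in HSPA5 its first base was at position -66 from the start. ERSE-II stood in the window of HYOU1 only among the members, in 2 copies, against 0.0696% of all genes (0.0541% of all windows). The upstream copy overlapped the UPRE of HYOU1, an element in 0.927% of genes (0.729% of windows). The windows of PDIA4, DNAJB9 and GANAB held none of these elements. The start used for DNAJB9 lay 306 bases from the GENCODE start, and that for PDIA4 lay 151 bases from it. Only exact matches were searched, so the absence holds for these windows only. The GANAB window is printed whole, in lower case because no element was found, since GANAB is the member with the largest ratio between the siRNAs.
GANAB, chr11:62646564-62646863, minus strand: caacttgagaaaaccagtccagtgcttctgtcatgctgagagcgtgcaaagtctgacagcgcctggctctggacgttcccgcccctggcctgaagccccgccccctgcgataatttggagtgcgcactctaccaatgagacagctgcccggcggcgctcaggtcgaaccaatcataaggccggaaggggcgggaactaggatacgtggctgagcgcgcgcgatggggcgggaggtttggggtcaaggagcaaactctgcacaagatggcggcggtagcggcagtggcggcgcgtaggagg
These matches describe letters in the reference and do not show that a factor was bound in these cells.

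Libraries held between 10215332 and 13384836 reads, as recovered from the steps between low values, and the values are RPKM, read numbers scaled to transcript length and library size. ODC1 itself stood at 7.50 RPKM with ODC1 siRNA against 167 RPKM with control siRNA in Huh7, and at 25.01 RPKM against 103 RPKM in Huh1, the direction of the labels. All 12 hepatocyte markers, among them ALB and APOA1, were at or above 1 RPKM in every library. None of the 4 endothelial markers found was at or above 1 RPKM in any, and PECAM1, also in that list, was not found. Fibroblast markers summed to 370 RPKM and 284 RPKM in Huh7 with ODC1 and control siRNA, against 15.7 RPKM and 12.1 RPKM in Huh1. Blood cell markers summed to between 14.9 RPKM and 26.4 RPKM, almost all of it CD68 and LYZ.

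All 10 members were well expressed. RPKM is scaled to length, but the lengths the authors used are not given. The order between genes is therefore approximate, beyond what counting intervals cover. In the Huh7 library with ODC1 siRNA they ran from 911 RPKM for CALR to 23.2 RPKM for DNAJB9, a 39.3-fold range. The order below CALR was HSP90B1, CANX, PDIA3, HSPA5, GANAB, PDIA6, PDIA4, HYOU1 and DNAJB9, and the 95% Poisson counting intervals overlapped only for GANAB and PDIA6. In Huh1 the range was narrower, 13.3-fold with ODC1 siRNA and 11.6-fold with control siRNA, and CALR and CANX shared the top with overlapping intervals. Together the members made up 0.788% and 0.681% of all RPKM in Huh7 with ODC1 and control siRNA, against 0.382% and 0.389% in Huh1. The GANAB row moved in this order with the siRNA, standing in position 6 with ODC1 siRNA and in position 8 with control siRNA in both lines.

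**Figure D1:**
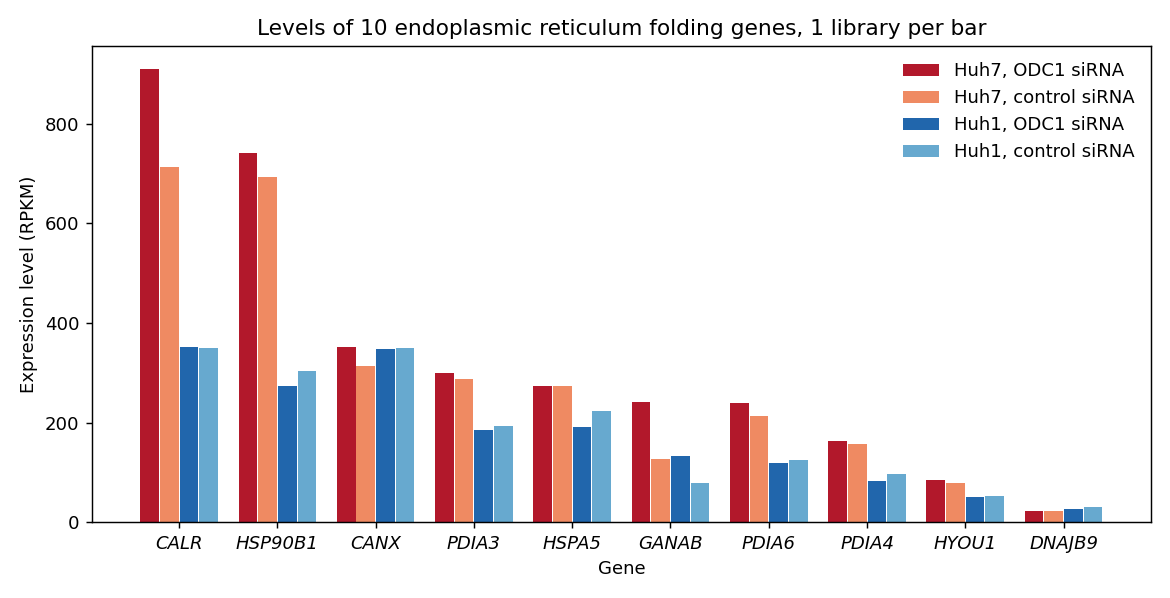
Expression level in RPKM (vertical axis, linear from 0) of the 10 genes in each of the 4 libraries, 1 bar per library with no replicate error. CALR and HSP90B1 stand highest in Huh7, CANX is near 350 RPKM in most libraries, and GANAB is higher with ODC1 siRNA in both lines.

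The first question was whether ODC1 siRNA changed these genes. GANAB, the catalytic alpha subunit of glucosidase II, rose, and no other member passed the test in either direction. GANAB stood at 241 RPKM with ODC1 siRNA against 126 RPKM with control siRNA in Huh7, and at 133 RPKM against 79.3 RPKM in Huh1. Both libraries with ODC1 siRNA were above both with control siRNA, and the Huh1 library with ODC1 siRNA was close to the Huh7 control library. The ratio was 1.91 in Huh7 (95% counting interval 1.84 to 1.97) and 1.67 in Huh1 (1.61 to 1.75), on about 8868 and 5553 reads in Huh7 and 5376 and 3828 reads in Huh1, with ODC1 and control siRNA. Over both lines, each line counting once, GANAB rose by 0.83 on the log2(RPKM + 1) scale (SE 0.070, limma adjusted p = 0.00312). In bulk RNA a change in the make-up of the culture and a change in RNA per cell cannot be told apart. It was the 26th largest rise among the 12039 genes with at least 1 RPKM in some library.

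In that limma fit 2.12% of all genes were called, 1.5% higher and 0.615% lower, and 1 of 10 members was called higher and 0 lower. At an unadjusted p under 0.05, limma also gave 1 member higher and 0 lower, where 10.7% of all genes were higher and 8.25% lower, so that count is near the background. The standard error rests on 1 residual degree of freedom, the difference in effect between the lines, moderated by all genes of like expression, so its p-values reflect how far these 4 libraries scatter, and the labels name no separate cultures. The GANAB call was lost without the filter on low values (adjusted p = 0.290) without the variance trend (adjusted p = 0.204) and without the line term (adjusted p = 1), settings under which no gene was called. Over 8 alternative fits it ranged from 0.000311 to 1. The other siRNA calls named here were lost under the same 3 settings. GANAB lies on chromosome 11 from 62624829 to 62646613 on the minus strand (GRCh38.p14). Its neighbours, chosen after the GANAB values were seen, were at 0.05 in Huh7 and 0.12 in Huh1 for B3GAT3 and at 0.22 and 0.16 for INTS5, as log2 fold changes, and neither passed (limma adjusted p = 0.649 and 0.396).

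Set against its partners in glycan trimming, GANAB had the larger log2 fold change. The noncatalytic beta subunit of glucosidase II, PRKCSH, stood at 142 RPKM with ODC1 siRNA against 104 RPKM with control siRNA in Huh7, and at 83.3 RPKM against 69.7 RPKM in Huh1, higher in both lines but just short of the threshold (log2 fold change 0.35, SE 0.073, limma adjusted p = 0.0517). The ratio of alpha to beta subunit transcript was 1.70 and 1.22 in Huh7 with ODC1 and control siRNA, and 1.59 and 1.14 in Huh1. PRKCSH passed with upper quartile scaling and with a variance trend on counting noise (limma adjusted p = 0.0291 and 0.0428, in a range from 0.0291 to 1 over 8 alternative fits). MOGS, glucosidase I, and UGGT1, which puts a glucose back on misfolded glycoproteins, were added after their values were seen. MOGS was at a log2 fold change of 0.15 and UGGT1 at 0.15, and neither passed (limma adjusted p = 0.401 and 0.372).

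**Figure D2:**
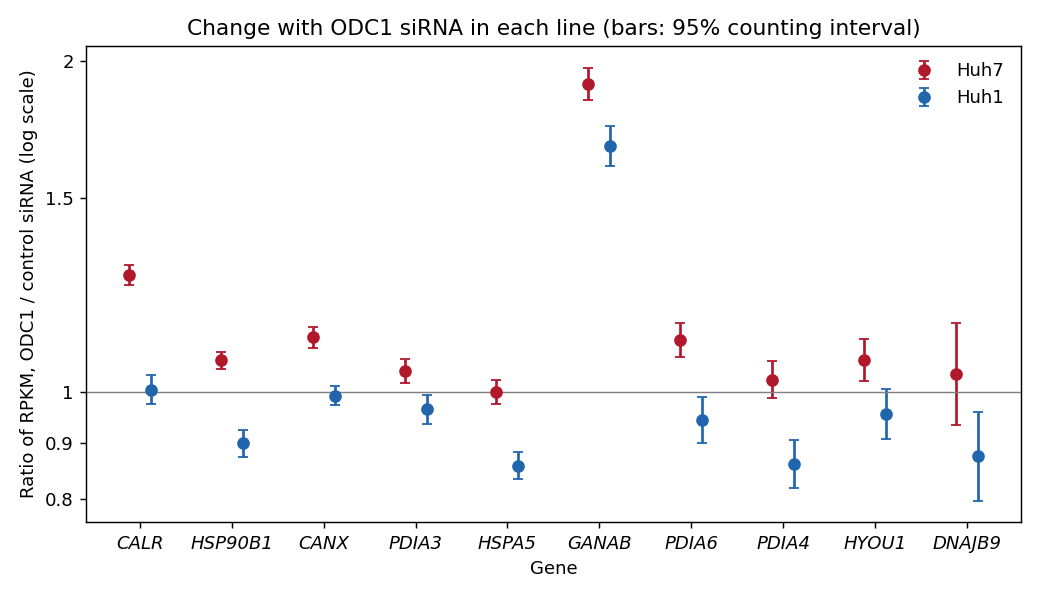
Ratio of RPKM with ODC1 siRNA to control siRNA (vertical axis, log scale) for each gene in Huh7 and Huh1, where bars are 95% counting intervals and cover counting error only. GANAB lies at 1.91 and 1.67, while the other 9 genes lie between 0.858 and 1.28.

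The lectin chaperones that receive glucosidase II products did not pass. CALR, the soluble lectin calreticulin, stood at 911 RPKM with ODC1 siRNA against 712 RPKM with control siRNA in Huh7, and at 351 RPKM against 349 RPKM in Huh1. Its ratio of 1.28 in Huh7 lay outside counting error (95% counting interval 1.25 to 1.31), whereas the ratio of 1.01 in Huh1 did not (0.975 to 1.04). Over both lines CALR was at 0.18 (SE 0.080, limma adjusted p = 0.269). CANX, the membrane-bound lectin calnexin, stood at 351 RPKM with ODC1 siRNA against 313 RPKM with control siRNA in Huh7, and at 347 RPKM against 350 RPKM in Huh1, with a mean log2 fold change of 0.08 (limma adjusted p = 0.548). PDIA3, the disulfide isomerase that works with both lectins, stood at 300 RPKM against 287 RPKM in Huh7 and at 186 RPKM against 192 RPKM in Huh1 (ODC1 siRNA before control siRNA), and its mean log2 fold change was 0.01 (limma adjusted p = 0.967).

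The BiP and GRP94 arm did not pass either. HSPA5 stood at 274.0 RPKM with ODC1 siRNA against 273.9 RPKM with control siRNA in Huh7, and at 192.0 RPKM against 224 RPKM in Huh1. Its ratio of 0.858 in Huh1 lay below 1 beyond counting error (95% counting interval 0.834 to 0.882), and it averaged -0.11 over both lines on the log2 scale (SE 0.069, limma adjusted p = 0.433). HSP90B1 stood at 741 RPKM with ODC1 siRNA against 693 RPKM with control siRNA in Huh7, and at 274 RPKM against 304 RPKM in Huh1, with a mean log2 fold change of -0.03 (limma adjusted p = 0.864). HYOU1, an Hsp70-related exchange factor for BiP, stood at 85.2 RPKM against 79.6 RPKM in Huh7 and at 51.2 RPKM against 53.6 RPKM in Huh1 (ODC1 siRNA before control siRNA), at a mean of 0.02 (limma adjusted p = 0.932). DNAJB9, a J-domain cochaperone of BiP also called ERdj4, stood at 23.2 RPKM against 22.3 RPKM in Huh7 and at 26.3 RPKM against 30.1 RPKM in Huh1, at a mean of -0.07 (limma adjusted p = 0.739).

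The 2 remaining disulfide isomerases had small differences of the same form. PDIA4 stood at 162 RPKM with ODC1 siRNA against 158 RPKM with control siRNA in Huh7, and at 83.5 RPKM against 97.03 RPKM in Huh1 (mean log2 fold change -0.09, limma adjusted p = 0.579). PDIA6 stood at 239 RPKM against 214 RPKM in Huh7 and at 119 RPKM against 126 RPKM in Huh1 (mean 0.04, limma adjusted p = 0.826). Across the 9 members other than GANAB, log2 fold changes ran from 0.00 to 0.35 in Huh7 and from -0.22 to 0.01 in Huh1. With 1 library per group, a missed threshold does not show that these genes did not differ.

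Within each line a rule of size was applied, with no test. No member reached 2-fold in either line, where 0.342% of genes in Huh7 and 0.055% in Huh1 were at least 2-fold higher and 0.429% and 0.0275% were at least 2-fold lower. At 1.5-fold GANAB was the 1 member higher in each line, where 2.53% of genes in Huh7 and 1.01% in Huh1 were higher. No member was 1.5-fold lower, where 3.16% and 0.367% of genes were. The median log2 fold change of the members was 0.10 in Huh7 and -0.07 in Huh1, against 0.00 and 0.02 over all genes tested.

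The siRNA ratios of the members differed between the lines in 1 direction. All 10 had a larger log2 fold change in Huh7 than in Huh1, where 46.7% of all genes tested did. Of the members, 8 were above 0 in Huh7 and below 0 in Huh1, against 14.7% of all genes tested, the exceptions being GANAB and CALR. In 3 of these 8, HSP90B1, PDIA3 and PDIA6, both ratios lay outside counting error, and in the other 5 at least 1 counting interval held 1. With upper quartile scaling and with quantile normalization HSPA5 moved below 0 in Huh7 and CALR below 0 in Huh1, and the larger value in Huh7 held for all 10. With 1 pair of libraries per line this difference has no test, and the members are not independent repeats of it.

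The lines were compared next, over both siRNAs. The siRNAs were the only repeat of each line, so this test also rested on 1 residual degree of freedom. Of the 10 members, 8 were higher in Huh7 than in Huh1, most of all HSP90B1 and CALR. HSP90B1 stood at 741 RPKM and 693 RPKM in Huh7 with ODC1 and control siRNA, against 274 RPKM and 304 RPKM in Huh1, and its mean Huh7 minus Huh1 log2 difference was 1.31 (SE 0.069, limma adjusted p = 5.26e-07). CALR had a mean difference of 1.20 (SE 0.080, limma adjusted p = 2.13e-06). The mean log2 difference was 0.88 for PDIA6, 0.82 for PDIA4, 0.76 for GANAB, 0.64 for HYOU1, 0.63 for PDIA3 and 0.40 for HSPA5, and the largest limma adjusted p among these was 0.000776. The GANAB call was lost without the siRNA term (limma adjusted p = 0.108), the highest of its 8 alternative fits, the lowest being 3.83e-06. In each of these 8 genes both Huh7 libraries were above both Huh1 libraries except in GANAB, whose Huh7 control library lay below the Huh1 library with ODC1 siRNA.

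CANX and DNAJB9 differed from this pattern. CANX was at -0.07 between the lines and did not pass (limma adjusted p = 0.326). Its direction was not stable. In the main scaling it was at 0.016 with ODC1 siRNA and at -0.16 with control siRNA. It was lower in Huh7 with upper quartile scaling, at -0.17 (limma adjusted p = 0.0305). With quantile normalization it was at 0.17 (limma adjusted p = 0.0721). Over the alternative fits the limma adjusted p ranged from 0.0305 to 0.536. DNAJB9 was lower in Huh7, at 23.2 RPKM and 22.3 RPKM against 26.3 RPKM and 30.1 RPKM in Huh1 with ODC1 and control siRNA, a mean difference of -0.29 (SE 0.091, limma adjusted p = 0.0168). That call was lost without the variance trend and without the siRNA term, and the value was -0.18 with either control library left out and -0.41 with either ODC1 siRNA library left out.

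Between the lines limma called 73.9% of all genes, 43.1% higher in Huh7 and 30.8% lower, so the 8 members higher and 1 lower stand against a background in which most genes differed. The median log2 difference of the members was 0.70, against 0.13 over all genes tested. Quantile normalization lowered the median of all genes by 0.115 and gave a member median of 0.78. Upper quartile scaling moved the median of all genes by -0.0875 and gave a member median of 0.60. The ratio of CALR to CANX transcript was 2.59 and 2.28 in Huh7 with ODC1 and control siRNA, against 1.01 and 0.999 in Huh1, and the ratio of HSP90B1 to HSPA5 was 2.70 and 2.53 against 1.43 and 1.36. Fibroblast markers moved with the line too, with 4 of 4 tested markers higher in Huh7, and the summed level of hepatocyte markers was 2948 RPKM and 3689 RPKM in Huh7 against 5870 RPKM and 6489 RPKM in Huh1. ALB made up 920.4 RPKM and 1166 RPKM of the Huh7 sums and 2806 RPKM and 3447 RPKM of the Huh1 sums. Of the 12 hepatocyte markers limma called 8 lower in Huh7 and 4 higher, AFP, TTR, FGA and FGB. Their part in the difference was not tested.

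**Figure D3:**
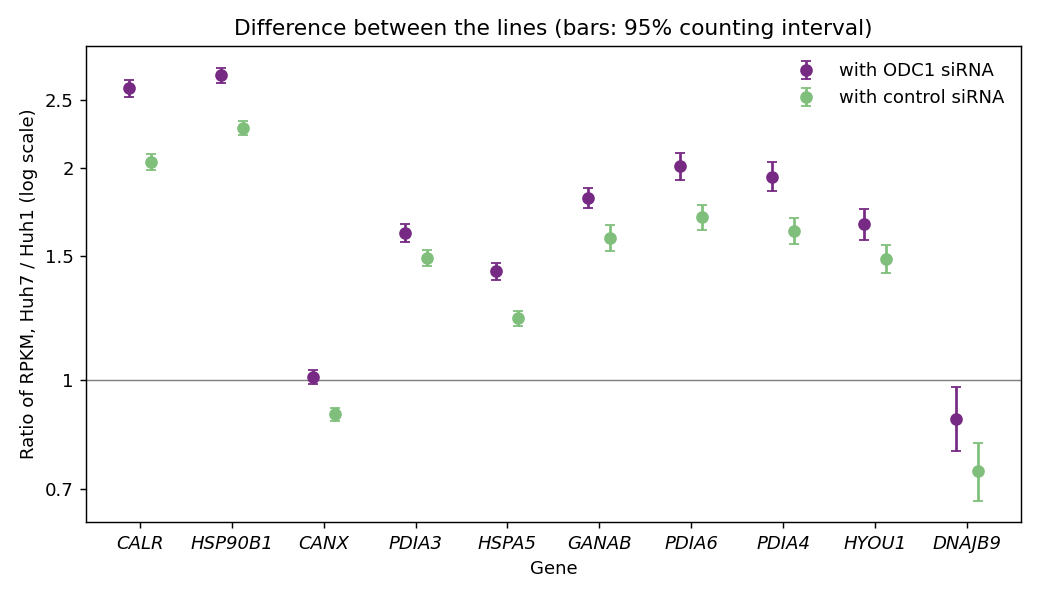
Ratio of RPKM in Huh7 to Huh1 (vertical axis, log scale) for each gene with ODC1 siRNA and with control siRNA, where bars are 95% counting intervals. HSP90B1 lies highest, at 2.71 and 2.28, CANX lies at 1.01 and 0.895, and DNAJB9 lies below 1 at 0.881 and 0.742.

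The wider folding pathway was followed through 7 further lists with 110 genes, of which 106 were tested. In limma 5 of these rose with ODC1 siRNA and 0 fell, against 1.5% higher and 0.615% lower of all genes. The median log2 fold change was 0.09 in Huh7 and 0.00 in Huh1. The lists were chosen with earlier results of these data known, so these counts are a description. The unadjusted counts given for each list stand against the 10.7% higher and 8.25% lower of all genes.

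Among partners of BiP and GRP94, 1 of 14 tested genes rose and 0 fell (4 higher and 2 lower at an unadjusted p under 0.05). MESDC2, a chaperone of LDL receptor family proteins, stood at 23.02 RPKM with ODC1 siRNA against 8.76 RPKM with control siRNA in Huh7, and at 15.6 RPKM against 9.56 RPKM in Huh1. It rose by 0.97 on the log2 scale (SE 0.15, limma adjusted p = 0.0221). The call was lost with a pseudocount of 0.1 (adjusted p = 0.0543) and with quantile normalization (adjusted p = 0.0577), in a range from 0.00441 to 1 over 8 alternative fits. SDF2L1 was at -0.36, CRELD2 at 0.35 and SIL1, an exchange factor for BiP, at 0.33, and none of the 3 passed. SIL1 was at 0.53 in Huh7 and 0.13 in Huh1.

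Among the other disulfide and proline isomerases, 2 of 22 tested genes rose and 0 fell (6 higher and 1 lower unadjusted in limma). PRDX4, a peroxiredoxin of this compartment that uses peroxide to form disulfides, stood at 246 RPKM with ODC1 siRNA against 142 RPKM with control siRNA in Huh7, and at 55.2 RPKM against 36.2 RPKM in Huh1 (log2 fold change 0.69, SE 0.073, limma adjusted p = 0.0078). TXNDC12, a small thioredoxin-like oxidoreductase, rose by 0.41 (limma adjusted p = 0.0411), a call lost with a pseudocount of 0.1, a filter at 5 RPKM and quantile normalization. FKBP14 was at 0.51 and FKBP2 at -0.26, both proline isomerases, without passing.

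Among genes of glycan trimming and glycoprotein sorting, 1 of 15 rose and 0 fell (5 higher and 2 lower unadjusted in limma). MLEC, malectin, a lectin that binds the diglucosylated glycan on which glucosidase II acts, stood at 99.2 RPKM with ODC1 siRNA against 66.2 RPKM with control siRNA in Huh7, and at 133 RPKM against 94.4 RPKM in Huh1. It rose by 0.53 on the log2 scale (SE 0.067, limma adjusted p = 0.0157). EDEM3, a mannosidase-like protein of glycoprotein disposal, was at 0.36 and LMAN1, a cargo receptor for export, at -0.33, and neither passed. LMAN1 fell with upper quartile scaling and with a variance trend on counting noise (limma adjusted p = 0.0405 and 0.0369, in a range from 0.0369 to 1 over 8 alternative fits).

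Among sensors and factors of the unfolded protein response, 1 of 14 rose and 0 fell (5 higher and 1 lower unadjusted in limma). PPP1R15A, also called GADD34, which directs a phosphatase to eIF2 alpha, stood at 66.01 RPKM with ODC1 siRNA against 28.4 RPKM with control siRNA in Huh7, and at 26.4 RPKM against 16.6 RPKM in Huh1 (log2 fold change 0.91, SE 0.12, limma adjusted p = 0.0163). CREB3L2 was at 0.37, ATF6B at 0.37 and ATF6 at 0.30, and none of the 3 passed. CREB3L2 passed with upper quartile scaling and with a variance trend on counting noise (limma adjusted p = 0.0468 and 0.0294, in a range from 0.0294 to 1). XBP1 and ATF4, named after their values were seen, were at -0.10 and 0.15 without passing. These transcript levels do not show whether the factors were active.

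The other 3 lists held no call in limma. Of 11 oligosaccharyltransferase genes, 1 was higher and 0 lower at an unadjusted p under 0.05, and the largest values were OSTC at 0.20, MAGT1 at 0.16, C11orf10 at 0.11 and KRTCAP2 at 0.10. Of 16 translocon and signal peptidase genes, 1 was higher and 2 lower unadjusted, with SEC61A2 at -0.37, SEC11A at 0.34, TRAM1 at -0.20 and SSR3 at -0.20. SEC61A2 was at -0.85 in Huh7 and 0.11 in Huh1, and SSR3 at -0.11 and -0.30. SEC11A passed with upper quartile scaling (limma adjusted p = 0.0361, in a range from 0.0361 to 1). Of 14 tested genes of ER-associated degradation, 2 were higher and 0 lower unadjusted, with AUP1 at 0.33, RNF5 at 0.23 and SYVN1 at 0.19. AUP1 was at 0.56 in Huh7 and 0.11 in Huh1. Hepatocyte markers moved alongside, with 1 of 12 higher (TTR) and 2 lower (ALB and FGA) in limma, 1 higher and 8 lower at an unadjusted p under 0.05, and a median log2 fold change of -0.37 in Huh7 and -0.06 in Huh1. Alongside them 1 of 4 tested fibroblast markers, LUM, was higher. Their part in these changes was not tested.

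**Figure D4:**
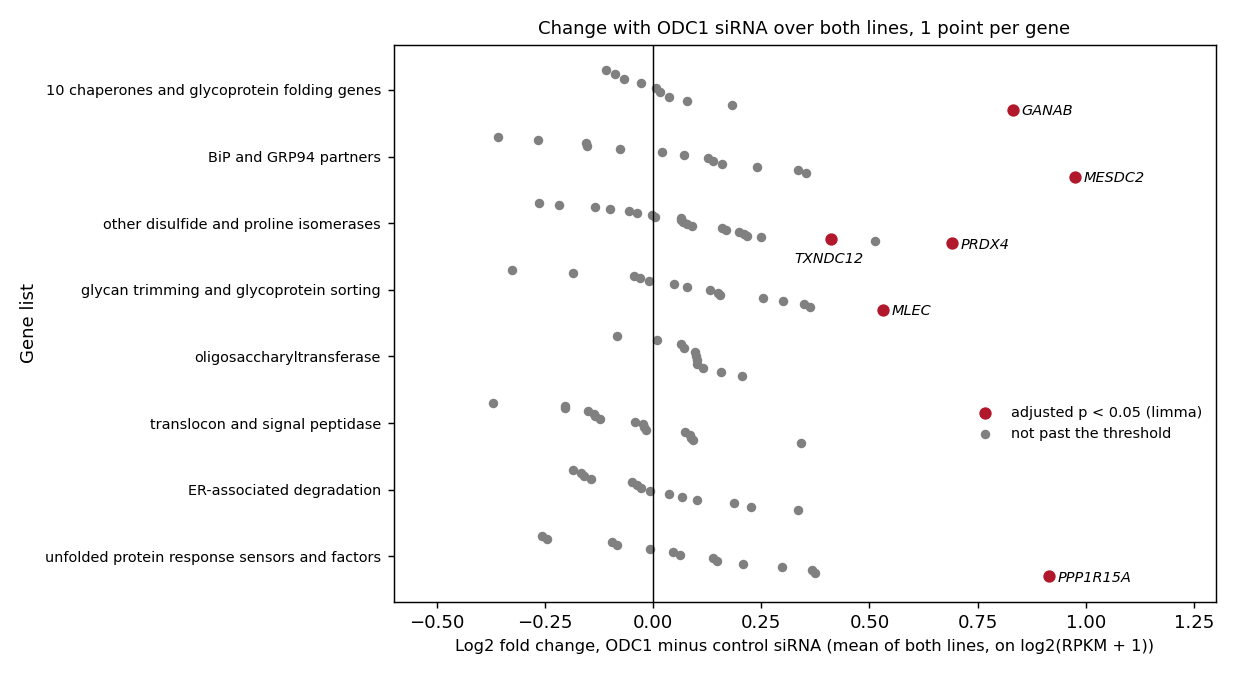
Mean log2 fold change of both lines on log2(RPKM + 1), ODC1 minus control siRNA (horizontal axis), with 1 point per tested gene in the list of the 10 genes and in 7 related lists, and red points past a limma adjusted p of 0.05. The 6 red points are all above 0, at 0.83 for GANAB and between 0.41 and 0.97 for the others.

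The mRNAs of the members were also searched for 2 words of 7 bases, chosen with earlier results of these data known. TCGGAGA stood in the mRNA of 0 of 10 members, against 10.9% of 11666 tested genes with a matched GENCODE transcript. ATATCAT stood in 2 of 10, PDIA4 and HYOU1, against 16.6%, and it stood in the ODC1 mRNA. The GANAB, MESDC2, PRDX4, TXNDC12, MLEC and PPP1R15A mRNAs held neither word.

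Genes with a pattern like that of HSPA5 were ranked by Euclidean distance over 3 values, the log2 fold changes in Huh7 and Huh1 and the difference between the lines, among 2049 other genes with at least 50 RPKM in some library. The nearest 5 were BRIX1, PQBP1, SLIRP, PSENEN and METAP2, at distances from 0.057 to 0.099 over 4 libraries. The limma SE of the HSPA5 siRNA effect was 0.069, so distances of this size do not settle the order of these genes. The nearest member was PDIA3 at rank 198, and GANAB stood at rank 1627.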

How the data were processed

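Per the labels' protocols, libraries were prepared from total RNA with a TruSeq RNA kit. The submitters' processing notes list hg19, TopHat2 2.0.9 and CASAVA 1.8.2. The read counter, annotation release and strandedness were not given in the sources used here. The authors deposited RPKM values for 18398 transcripts (18382 symbols), so no count model was used.

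Depth was recovered from the steps between values under 0.3 RPKM and GENCODE release 29 lengths, which may differ from the lengths the authors used. Reads behind counting intervals (exact binomial for ratios, Poisson for levels) are therefore approximate, and intervals cover counting error only. Where no length matched, the median of 2698 bases were used for the counting trend.

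Values were analysed as log2(RPKM + 1), which understates changes of low genes. limma 3.58.1 (R 4.3.3) was fitted to 12039 genes reaching 1 RPKM in some library, with terms for line and for siRNA and a mean-variance trend that added 7.42 prior degrees of freedom. The line term is the block that pairs libraries. Benjamini-Hochberg adjustment ran over all 12039 genes with a threshold of 0.05. Members and lists were chosen with earlier results of these data known. The rule named all members, the 4 largest mean changes of each other list, and the 5 genes nearest HSPA5; 1 gene so named is not reported here. Alternatives changed pseudocount, filter, scaling, trend, block and libraries. The labels do not say whether libraries came from separate cultures.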

Additional observations from a re-analysis of the deposited data

Results flagged for a closer look

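The effect of ODC1 siRNA pointed in opposite directions in the lines for 8 of the 10 members, each resting on 1 pair of libraries per line, and the difference was not tested. Of all genes tested, 14.7% were above 0 in Huh7 and below 0 in Huh1. The Huh7 minus Huh1 difference of log2 fold changes was 0.22 for HSPA5, 0.25 for HSP90B1, 0.18 for CANX, 0.12 for PDIA3, 0.25 for PDIA4, 0.24 for PDIA6, 0.16 for HYOU1 and 0.24 for DNAJB9. Each was above 0 in Huh7 and below 0 in Huh1, but both ratios lay outside counting error only for HSP90B1, PDIA3 and PDIA6. HSPA5 was below 0 in Huh7 too with upper quartile scaling and with quantile normalization. In the wider pathway 22 of 106 genes had the same directions, to be set against that 14.7%. The reverse held for 11, and its share over all genes was not computed, so that count has no background here. Of the pathway genes that the text names by rule, the same directions held for MAGT1, at 0.33, and KRTCAP2, at 0.23, and the reverse for SEC61A2, at -0.95.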

How the results depend on the processing

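Over both lines, limma called 181 genes higher and 74 lower with ODC1 siRNA. A pseudocount of 0.1 gave 43 and 11, a filter at 5 RPKM 81 and 27, upper quartile scaling 290 and 195, and quantile normalization 40 and 12. No filter, limma without trend and no replicate block (no line term) each gave 0 and 0, with 2040, 1830 and 22 genes at an unadjusted p under 0.05, and 0 members higher in place of 1. The share of calls that were higher was 71.0%, against 59.8% with upper quartile scaling, 69.4% with the trend on counting variance, 75.0% with a filter at 5 RPKM, 76.9% with quantile normalization and 79.6% with a pseudocount of 0.1. GANAB kept its call in 5 of 8 alternative fits, with adjusted p from 0.000311 to 1. Leaving out a library gave values with no test, between 0.74 and 0.93 for GANAB, and no count of calls could be had with 3 libraries. With the libraries of 1 line left out the value is that of the other line, so the siRNA effect changed sign for the 8 members with opposite directions (from -0.22 to 0.00 for HSPA5, -0.15 to 0.10 for HSP90B1 and -0.21 to 0.04 for PDIA4) and for MAGT1, KRTCAP2, SEC61A2 and COL1A1. The CANX line difference ranged from -0.16 to 0.016. Under the other settings, reversed values were PDIA3 at -0.0020 with upper quartile scaling, HYOU1 at -0.012 with quantile normalization and COL1A1 at -0.013 with a pseudocount of 0.1, and, between the lines, CANX at 0.17 with quantile normalization. Members lower in Huh7 numbered 2 with upper quartile scaling and 0 without trend or with no replicate block (no siRNA term), in place of 1. Members higher in Huh7 numbered 7 in place of 8 with no replicate block, where the GANAB line call was lost (adjusted p = 0.108). Within Huh7, genes at least 2-fold higher and lower numbered 39 and 49, then 92 and 144 with a pseudocount of 0.1, and 289 and 361 by a 1.5-fold rule. A filter at 5 RPKM left 31 lower. Within Huh1 they numbered 6 and 3, then 25 and 20 with a pseudocount of 0.1, and 110 and 40 by the 1.5-fold rule. Except where a setting's construction shows it (fewer genes or libraries), the cause was not tested. Counting intervals of the siRNA ratio held 1 in Huh7 for HSPA5 (0.975 to 1.03), PDIA4 (0.988 to 1.07) and DNAJB9 (0.933 to 1.16). In Huh1 they held 1 for CALR (0.975 to 1.04), CANX (0.973 to 1.01) and HYOU1 (0.907 to 1.01). Differences of that size were not detectable at this depth.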
